A study of Mus musculus with 14 samples.

Results

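Mouse gallbladder tissue (GB tissue) was set against small intestine tissue (SI tissue) across 19938 genes. The comparison rests on the 2 arrays titled GB tissue and the 2 titled intestine tissue, which are 4 of the 14 arrays in the series and were chosen by title alone. The series measured total RNA of C57BL/6 mouse material on an Affymetrix gene array, with 2 arrays in each of 7 groups. All groups share the C57BL/6 strain, and no genotype, age, sex, fasting state or number of animals was given for any of them. The intestinal samples were identified as small intestine by the series design, with no segment named. Liver tissue, GB organoids and SI organoids, with 2 arrays each, enter where they are named. The 2 liver organoid arrays enter only the fit behind the organoid calls, where they add to the estimate of spread. Organoids are epithelial cultures grown in Matrigel, here in AdDMEM/F12 medium with B27, N2, N-acetylcysteine, EGF, FGF10, HGF, nicotinamide, R-spondin 1 and noggin, with that medium stated once for all organoids. They are grown without the muscle, connective tissue and vessels of the organ. The labels do not say whether replicates came from separate animals, so p-values measure the spread between these samples, which may be technical. The 2 GB arrays are an exception, as they differed in sex-linked transcripts, given below, and so do not repeat the same RNA.

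The gallbladder stores bile between meals, concentrates it by taking up salt and water, secretes bicarbonate and mucus, and empties when cholecystokinin makes its muscular wall contract. Its lining is a single sheet of columnar cells that arises from the same foregut region as the bile ducts, liver and ventral pancreas. The small intestine digests and absorbs. Its lining turns over within days from Lgr5-positive crypt stem cells into absorptive enterocytes, whose brush border carries digestive enzymes and carriers, and into goblet, Paneth, enteroendocrine and tuft cells.

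Values are log2 signals from the authors' RMA processing, so a difference of 2 is a fold of 4. A gene was called when limma's moderated statistic gave an adjusted p below 0.05. The statistic came from a fit to the 6 tissue arrays, adjusted by Benjamini-Hochberg over all 19938 genes. All differences are GB tissue minus SI tissue unless another pair is named.

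The labels were first set against defining markers. Of the small intestine markers, Cdx2, the intestinal homeobox factor, had signals of 7.02 and 7.35 in GB tissue, against 12.23 and 11.64 in SI tissue. Sis, the brush border sucrase-isomaltase, had 5.27 and 5.03 in GB tissue, against 13.87 and 13.77 in SI tissue. Sox17, a biliary and gallbladder transcription factor, had 10.66 and 10.23 in GB tissue, against 7.21 and 7.07 in SI tissue. The cell surface mucin Muc1 had 13.83 and 13.47 in GB tissue, against 5.87 and 7.55 in SI tissue. Each of these 4 markers lay on the side its label gives, with no overlap between the groups. The GB markers Krt19 and Cftr, given next, did not. The GB marker Krt7 and the general epithelial markers Epcam, Krt8 and Krt18 are not given here. Over all genes both GB arrays lay above both SI arrays in 30.0% and below both in 36.3%. Krt19, a keratin of biliary and intestinal epithelium, was high in both organs at 13.52 and 13.24 in GB tissue, against 13.33 and 13.09 in SI tissue (difference 0.17, adjusted p 0.519). Cftr, the chloride channel listed among GB markers, was lower in GB tissue at 7.01 and 6.23 against 10.59 and 10.90 in SI tissue (difference -4.13, SE 0.28, adjusted p 0.00109). The epithelial adhesion protein Cdh1, or E-cadherin, had high signals of 13.00 and 12.68 in GB tissue, against 12.97 and 12.58 in SI tissue.

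Single arrays stood apart in ways that bear on the results. GB tissue replicate 2 was close to liver tissue in 31 hepatocyte markers, with a mean signal of 13.03 in that array and 11.16 in GB tissue replicate 1. Those markers averaged 7.0 and 7.32 in SI tissue, and 13.59 and 13.43 in liver tissue. The female-specific transcript Xist had signals of 13.51 and 5.46 in GB tissue, against 11.57 and 11.91 in SI tissue, and the Y-linked gene Uty had 4.15 and 9.80 in GB tissue, against 4.47 and 4.22 in SI tissue. GB tissue replicate 2 was thus the array with low Xist and high Uty, and the other tissue arrays had the opposite pattern. Leaving out Xist, Tsix and 4 Y-linked genes left 2068 genes called higher and 2210 called lower. So few genes could hardly move the counts given below, so nothing is read from this. Other genes that split the GB arrays stayed in, such as Hsd3b5 at 4.56 and 11.26 and Cyp2b9 at 11.35 and 6.17. Whether sex bears on the differences was not tested.

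In SI tissue, replicate 1 was high in genes known from the ileum. Fabp6, the ileal bile acid binding protein, had signals of 13.16 and 5.42 on the SI arrays, Slc10a2, the apical bile acid uptake carrier, had 11.94 and 6.18, and the bile acid induced hormone Fgf15 had 12.04 and 7.19. Replicate 2 was high in digestive enzyme genes of the exocrine pancreas, such as carboxypeptidase Cpa1 at 6.79 and 13.52, and in Tmprss15, the duodenal enzyme enteropeptidase, at 5.26 and 11.26. The 24 measured acinar markers averaged 11.70 on that array, 7.11 on SI replicate 1, and 7.39 and 7.14 in GB tissue. A difference that rests on one of these arrays is named as such below.

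**Figure D1:**
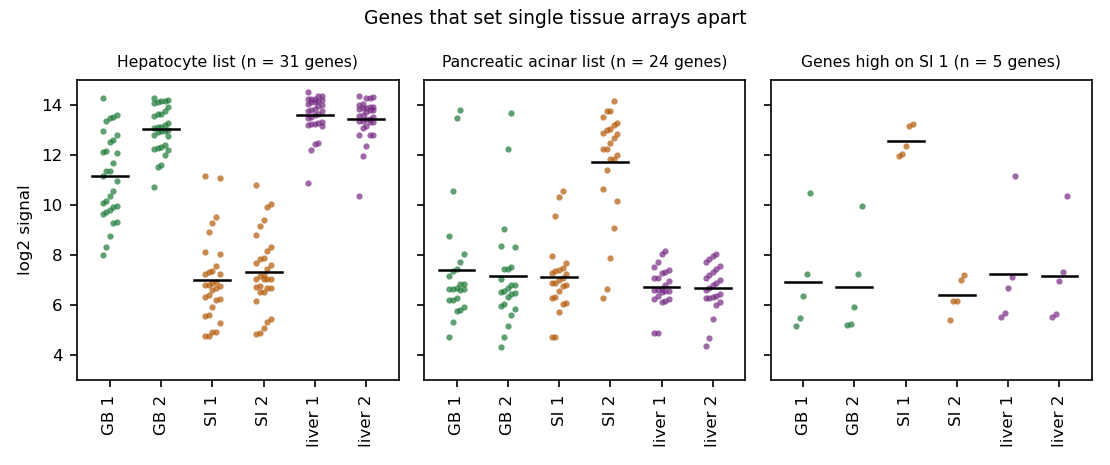
Log2 signal of each gene (points) and the mean over genes (bars) on the 6 tissue arrays for 31 hepatocyte markers, 24 pancreatic acinar markers and 5 genes high on SI replicate 1 (Fabp6, Slc10a2, Fgf15, Slc5a8 and Tmigd1, chosen after their values were seen). Hepatocyte markers averaged 11.16 and 13.03 in GB tissue and 7.0 and 7.32 in SI tissue, and acinar markers averaged 11.70 on SI replicate 2.

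Of the 19938 genes, 2064 were called higher in GB tissue, 10.4% of all genes, and 2208 were called lower, 11.1%. The list counts below are to be read beside these shares. A difference of at least 2 log2 units was found in 503 called higher (2.52%) and 555 called lower (2.78%). The median difference over all genes was -0.04. These counts depend on single arrays. Without SI replicate 2 they were 1109 higher and 1314 lower, without SI replicate 1 they were 1276 and 1526, and without GB replicate 1 they were 1543 and 1226. The 2 arrays of GB tissue correlated at r = 0.965 across genes and those of SI tissue at r = 0.972, and genes are not independent replicates. For a single gene the smallest 2-sided p of an exact permutation test in this design is 0.333, and the calls come from limma, which pools the spread over genes.

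**Figure D2:**
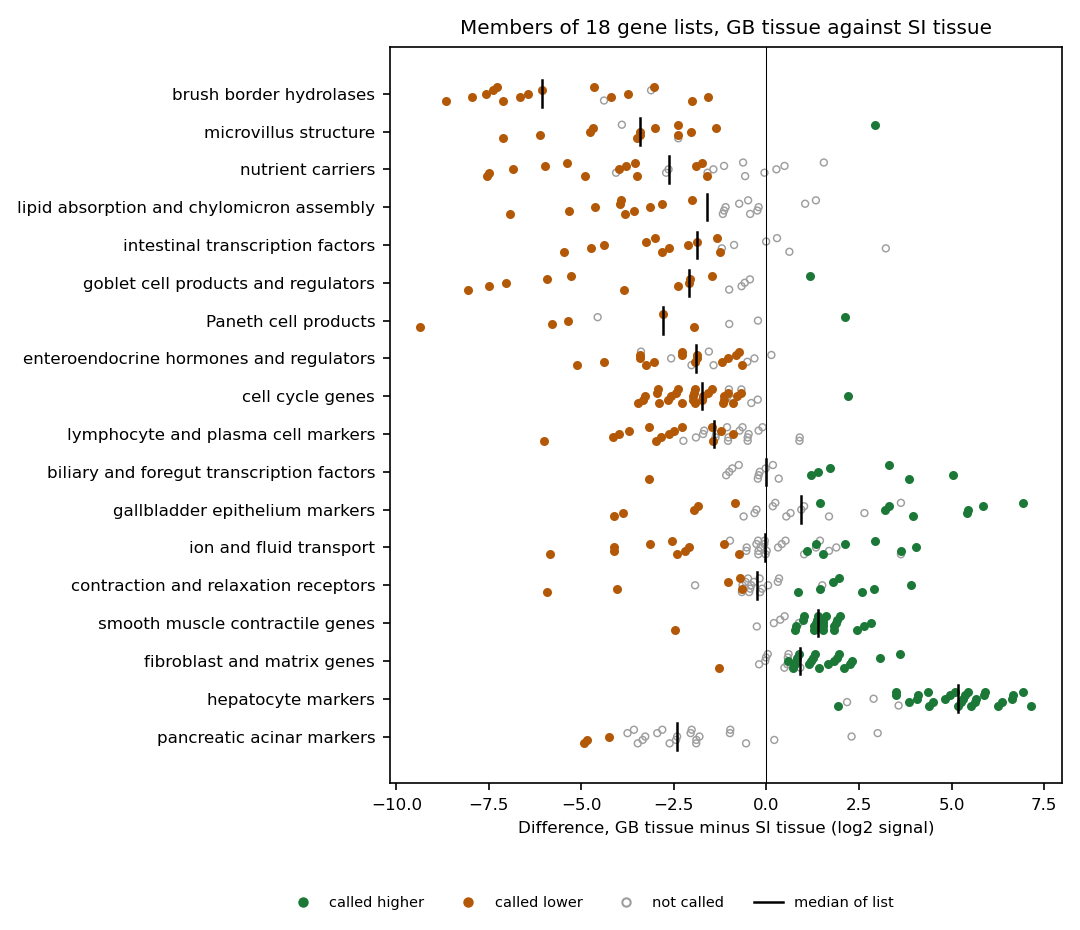
Differences of GB tissue minus SI tissue (log2 signal, horizontal axis) for the measured members of 18 gene lists, with called genes filled, genes that were not called open, and the list median as a bar. Brush border hydrolases lie furthest to the left with a median of -6.06, and hepatocyte markers furthest to the right with a median of 5.17.

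The genes lower in GB tissue included, among those with the largest differences, products of Paneth cells, enterocytes and goblet cells. Defa24, an alpha-defensin that Paneth cells release against bacteria, had signals of 3.79 and 3.33 in GB tissue, against 12.34 and 13.49 in SI tissue (difference -9.35, SE 0.40, adjusted p 0.000235). It is one of a family of near-identical genes, so its probes may read its relatives as well. Sis differed by -8.67 (SE 0.16, adjusted p 5.66e-05) and Clca4b by -8.38. The goblet cell lectin Zg16 differed by -8.07, and Cdh17, a cadherin of intestinal epithelium, by -7.90. On the GB arrays these genes had signals between 3.33 and 6.23, and on the SI arrays between 12.34 and 14.20. All 15 genes with the largest falls were also called lower in GB organoids than in SI organoids, where 23.3% of all genes were called lower. In bulk tissue, fewer cells of a type and less RNA per cell cannot be told apart.

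Transcription factors of intestinal epithelium were lower in GB tissue. Of 17 measured, 11 were called lower and 0 higher (median -1.88), against 10.4% called higher and 11.1% lower among all genes, and 1 was called higher without either SI array. Isx, a homeobox factor of enterocytes, had signals of 6.53 and 6.08 in GB tissue, against 11.93 and 11.64 in SI tissue (difference -5.48, SE 0.21, adjusted p 0.000167). Cdx2 (difference -4.75, SE 0.24) and its relative Cdx1 (difference -2.64, SE 0.30) were called lower, as was Hnf4g, a nuclear receptor of the enterocyte programme, at 8.83 and 8.09 in GB tissue, against 12.71 and 12.98 in SI tissue (difference -4.38, SE 0.28). The vitamin D receptor Vdr differed by -2.81 and Esrra, a nuclear receptor of mitochondrial genes, by -1.88. Among factors not called, Klf5, of proliferating epithelium, had 13.27 and 12.79 in GB tissue, against 12.80 and 12.69 in SI tissue (difference 0.29, adjusted p 0.361). Onecut2 had 12.20 and 11.95 in GB tissue, against 7.12 and 10.58 in SI tissue (difference 3.23, adjusted p 0.0829). Hnf4a, used by liver and intestine alike, had 10.96 and 12.26 in GB tissue, against 12.81 and 12.81 in SI tissue and was not called (difference -1.21, adjusted p 0.0967).

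Enzymes of the brush border, which cut sugars, peptides and lipids at the enterocyte surface, gave the lowest median of all lists examined. Of 17 measured hydrolases, 15 were called lower in GB tissue and 0 higher, with a median of -6.06. The peptidase Naaladl1 had signals of 5.13 and 5.14 in GB tissue, against 13.99 and 12.17 in SI tissue (difference -7.95, SE 0.58). The metalloprotease subunit Mep1a had 5.25 and 5.15 in GB tissue, against 13.84 and 11.73 in SI tissue (difference -7.58, SE 0.65). Intestinal alkaline phosphatase Alpi had 6.14 and 6.29 in GB tissue, against 13.39 and 13.83 in SI tissue (difference -7.40, SE 0.20). Lactase, Lct, had 6.10 and 6.10 in GB tissue, against 13.19 and 13.26 in SI tissue (difference -7.13, SE 0.15), and in each of these enzymes the groups lay far apart. The 2 hydrolases not called, Akp3 at 8.39 and 13.95 and Tmprss15 at 5.26 and 11.26 in SI tissue, were far higher on SI replicate 2 than on SI replicate 1. Without SI replicate 2 the difference was -1.61 for Akp3 and -0.12 for Tmprss15. Some brush border enzymes kept a high signal in GB tissue. Mgam, maltase-glucoamylase, had 12.32 and 12.17 in GB tissue, against 13.90 and 13.73 in SI tissue (difference -1.58, SE 0.15, adjusted p 0.00237). The peptidase Dpp4 had 11.19 and 11.45 in GB tissue, against 13.54 and 13.12 in SI tissue (difference -2.01, SE 0.20). The ceramidase Asah2 had 10.22 and 10.35 in GB tissue, against 13.41 and 13.24 in SI tissue (difference -3.04, SE 0.15).

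The promoters of 3 hydrolases that fell together are shown, those of Sis, Mep1a and Alpi, as the 300 bases from 250 before to 50 after the start in RefSeq (GRCm38.p6). They lie at chr3:72967814-72968113, chr17:43502724-43503023 and chr1:87101557-87101856, all on the minus strand. Capitals mark each match, on either strand, to TTTAT (other strand ATAAA), the core letters bound by Cdx factors, and in Alpi also to CAAAGTCCA, a motif of Hnf4 factors. Overlapping matches would be counted, and 2 of the matches in Sis adjoin.
Sis: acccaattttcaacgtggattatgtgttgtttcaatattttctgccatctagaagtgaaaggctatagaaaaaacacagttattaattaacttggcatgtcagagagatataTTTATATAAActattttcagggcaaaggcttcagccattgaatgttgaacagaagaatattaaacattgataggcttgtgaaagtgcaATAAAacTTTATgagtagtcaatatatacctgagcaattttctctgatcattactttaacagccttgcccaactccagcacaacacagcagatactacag
Mep1a: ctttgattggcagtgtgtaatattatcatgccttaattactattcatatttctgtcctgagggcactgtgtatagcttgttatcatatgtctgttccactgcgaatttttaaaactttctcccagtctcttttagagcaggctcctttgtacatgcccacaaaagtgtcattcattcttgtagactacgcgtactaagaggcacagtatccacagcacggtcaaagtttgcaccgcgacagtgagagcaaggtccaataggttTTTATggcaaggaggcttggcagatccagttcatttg
Alpi: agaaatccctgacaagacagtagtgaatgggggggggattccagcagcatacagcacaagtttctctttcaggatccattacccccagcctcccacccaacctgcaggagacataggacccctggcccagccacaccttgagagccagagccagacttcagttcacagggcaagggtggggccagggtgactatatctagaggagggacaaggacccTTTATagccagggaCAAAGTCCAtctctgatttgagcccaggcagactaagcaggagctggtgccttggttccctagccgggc
The TTTAT core was found 4 times in the Sis window and 1 time each in those of Mep1a and Alpi. Of 15 hydrolases with a promoter entry, not all of them called, 10 held the core, and so did 13143 of all 32851 promoters of that length, or 40%. Hydrolases were counted per gene, with a match in any promoter of the gene enough, and the share of all is per promoter. The 2 shares are therefore not strictly alike. The Hnf4 motif was in 2 of the 15, Alpi and Treh, and in 0.475% of all promoters. A match describes the letters and is no evidence of binding.

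Proteins that build and anchor the microvilli followed the enzymes. Of 15 measured, 12 were called lower and 1 higher (median -3.41). The intermicrovillar cadherin Cdhr2 had signals of 6.34 and 6.61 in GB tissue, against 13.68 and 13.49 in SI tissue (difference -7.11, SE 0.16). The motor protein Myo7b had 6.78 and 6.76 in GB tissue, against 13.05 and 12.71 in SI tissue (difference -6.11, SE 0.16). Villin, Vil1, was lower but at a high signal in both organs, with 10.42 and 9.85 in GB tissue, against 13.76 and 13.48 in SI tissue (difference -3.49, SE 0.27). The exception was the villin relative Vill, at 10.12 and 9.68 in GB tissue, against 6.98 and 6.97 in SI tissue (difference 2.93, SE 0.19, adjusted p 0.000847).

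Carriers of nutrients across the brush border were also lower, with 13 of 25 called lower and 0 higher (median -2.65), or 1 higher without SI replicate 2. The neutral amino acid carrier Slc6a19 had signals of 6.01 and 6.03 in GB tissue, against 13.80 and 13.35 in SI tissue (difference -7.55, SE 0.22). The peptide carrier Slc15a1 had 6.14 and 5.71 in GB tissue, against 13.57 and 13.25 in SI tissue (difference -7.49, SE 0.21). The sodium-glucose carrier Slc5a1 had 6.44 and 7.48 in GB tissue, against 13.84 and 13.76 in SI tissue (difference -6.84, SE 0.35). In each of these carriers both GB arrays lay below both SI arrays, as in 36.3% of all genes. The fructose carrier Slc2a5 differed by -5.40 (adjusted p 0.00424). Carriers not called included the glucose exit carrier Slc2a2, at 11.65 and 12.35 in GB tissue, against 12.24 and 13.02 in SI tissue (difference -0.63, adjusted p 0.35), and the taurine carrier Slc6a6, at 12.79 and 12.78 in GB tissue, against 12.85 and 11.75 in SI tissue (difference 0.49, adjusted p 0.494). The phosphate carrier Slc34a2 had 13.27 and 7.81 on the SI arrays (difference -4.06, adjusted p 0.142) and was high on 1 of them alone.

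Genes that take up dietary fat and pack it into chylomicrons were lower in GB tissue or were not called. Of 20 measured, 10 were called lower and 0 higher (median -1.60), and without SI replicate 1 only 6 were called lower and 1 was called higher. Fabp2, the intestinal fatty acid binding protein, had signals of 6.10 and 8.40 in GB tissue, against 14.27 and 14.08 in SI tissue (difference -6.92, SE 0.71). Mogat2, which rebuilds triglyceride in enterocytes, had 9.28 and 7.84 in GB tissue, against 13.11 and 13.30 in SI tissue (difference -4.65, SE 0.48). Dgat1, which adds the last acyl chain, had 9.32 and 9.77 in GB tissue, against 13.50 and 13.21 in SI tissue (difference -3.81, SE 0.21). Neither GB array reached an SI array in these 3 genes, and 36.3% of all genes had that order. Fabp1, shared by liver and intestine, had 10.65 and 13.42 in GB tissue, against 11.32 and 13.63 in SI tissue and was not called (difference -0.44, adjusted p 0.801). The apolipoprotein genes Apoa1 (-1.18) and Apob (-1.15) were not called either, and both were higher on GB replicate 2 than on GB replicate 1.

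**Figure D3:**
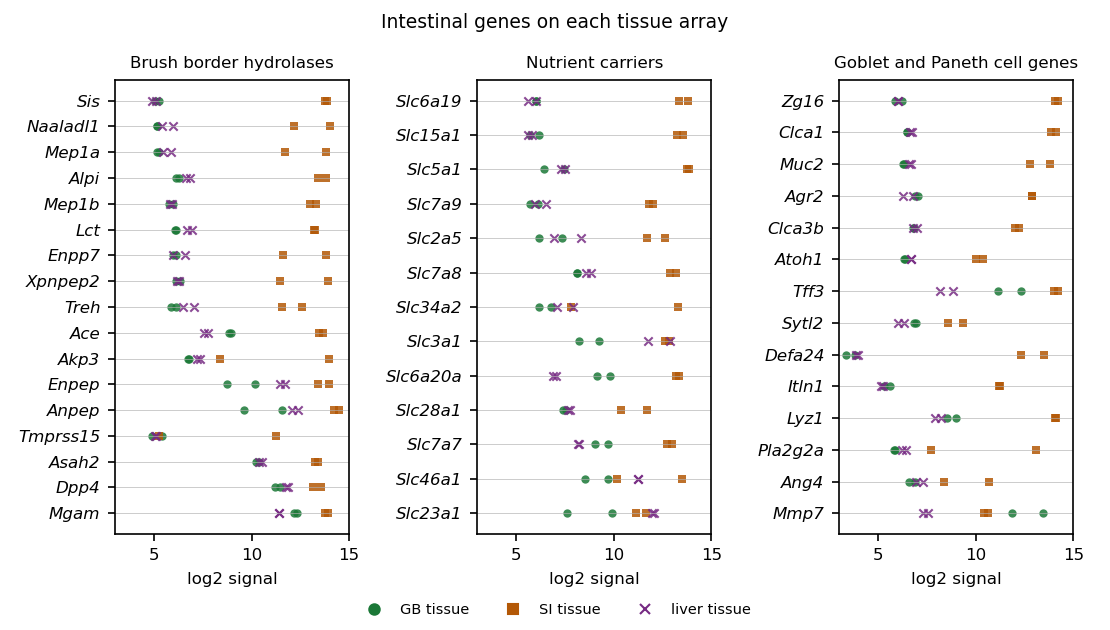
Log2 signals on each GB, SI and liver tissue array for the 17 measured brush border hydrolases, the 13 nutrient carriers with the largest differences, and 14 goblet and Paneth cell genes. GB arrays lie to the left of SI arrays for most of them, one exception being Mmp7 with 13.47 and 11.88 in GB tissue and 10.44 and 10.64 in SI tissue.

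Bile acid genes were called in both directions. Of 22 measured, 7 were called higher in GB tissue and 2 lower (median 1.34). Both genes called lower encode the exporter that moves bile acids out of enterocytes. Slc51b had signals of 6.43 and 6.14 in GB tissue, against 13.06 and 11.87 in SI tissue (difference -6.18, SE 0.58). Its partner Slc51a had 6.78 and 6.29 in GB tissue, against 12.86 and 11.43 in SI tissue (difference -5.61, SE 0.47). Among those called higher were 5 that liver tissue also had at high levels: the uptake carriers Slc10a1 and Slco1b2, the export pump Abcb11, the rate-limiting synthesis enzyme Cyp7a1 and the conjugation enzyme Slc27a5. Slc10a1 had 10.99 and 12.84 in GB tissue, against 5.80 and 5.89 in SI tissue, with 13.21 and 13.31 in liver tissue. All 5 were higher on GB replicate 2 than on GB replicate 1. The calls of Abcb11, Slco1b2, Cyp7a1 and Slc27a5 ended without either SI array (adjusted p from 0.062 for Abcb11 to 0.155 for Slc27a5). Those of Slco1b2 and Slc27a5 also ended without either liver array (0.0802 and 0.089), and that of Cyp7a1 without GB replicate 2 (0.0526). The other two were the export carrier Abcc3 at 11.52 and 11.74 in GB tissue, against 9.95 and 10.52 in SI tissue (difference 1.39, SE 0.33) and the bile acid receptor Gpbar1 at 9.15 and 8.83 in GB tissue, against 7.60 and 7.46 in SI tissue (difference 1.46, SE 0.17). Gpbar1 was at 7.62 and 7.62 in liver tissue, below both GB arrays. The call of Abcc3 ended without any one GB or SI array, at adjusted p between 0.056 and 0.128. Slc10a2 was high in GB tissue, at 10.46 and 9.95, and lay between the 2 SI arrays. Without either SI array 3 genes of the list were called higher, and without GB replicate 2 or SI replicate 2 the count lower was 4.

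Products of the secretory lineages of the crypt were low in GB tissue. Of 15 goblet cell genes, 10 were called lower and 1 higher (median -2.08), the 1 being the transcription factor Creb3l1, whose call ended without any one array but SI replicate 1 (adjusted p from 0.0745 to 0.171). Muc2, the gel-forming mucin of intestinal mucus, had signals of 6.25 and 6.30 in GB tissue, against 13.82 and 12.80 in SI tissue (difference -7.04, SE 0.33). Clca1 had 6.46 and 6.50 in GB tissue, against 14.09 and 13.86 in SI tissue (difference -7.50, SE 0.15). Atoh1, the factor that starts the secretory lineage, had 6.36 and 6.33 in GB tissue, against 10.39 and 10.03 in SI tissue (difference -3.86, SE 0.17). Agr2, which folds mucins, had 7.03 and 6.90 in GB tissue, against 12.90 and 12.87 in SI tissue (difference -5.92, SE 0.21). Spink4 had 12.28 and 11.30 in GB tissue, against 11.94 and 12.54 in SI tissue with no call. Of 9 Paneth cell genes with a probe set of their own, 5 were called lower and 1 higher (median -2.78). Lysozyme, Lyz1, had 8.97 and 8.50 in GB tissue, against 14.12 and 14.08 in SI tissue (difference -5.36, SE 0.21). The lectin Itln1 had 5.61 and 5.28 in GB tissue, against 11.26 and 11.20 in SI tissue (difference -5.78, SE 0.17). The 1 called higher was the matrix metalloprotease Mmp7, at 13.47 and 11.88 in GB tissue, against 10.44 and 10.64 in SI tissue (difference 2.14, SE 0.50, adjusted p 0.0356), a call that ended without either SI array (adjusted p 0.122 and 0.106) and without either liver array (0.0718). Its difference without GB replicate 1 was 1.34.

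Enteroendocrine hormones and their regulators were called lower in 16 of 24 genes and higher in 0 (median -1.91), with 10 called lower without GB replicate 2. Gip had signals of 6.93 and 6.74 in GB tissue, against 10.42 and 12.05 in SI tissue (difference -4.40, SE 0.51). Glucagon, Gcg, had 6.06 and 5.47 in GB tissue, against 9.17 and 9.16 in SI tissue (difference -3.41, SE 0.23). Chromogranin A, Chga, had 7.09 and 7.47 in GB tissue, against 9.65 and 10.99 in SI tissue (difference -3.04, SE 0.44). Cck, the hormone that empties the gallbladder, had 5.55 and 5.52 in GB tissue, against 6.84 and 9.39 in SI tissue and was not called (difference -2.58, adjusted p 0.0695), its SI arrays lying far apart. Tuft cell genes gave 4 lower and 1 higher among 18 (median -0.53). The count lower fell to 1 without GB replicate 1, SI replicate 2 or either liver array. Rgs13, a regulator of G protein signalling, had 7.49 and 7.76 in GB tissue, against 9.44 and 10.32 in SI tissue (difference -2.26, SE 0.31). Dclk1 had 7.73 and 8.35 in GB tissue, against 8.28 and 8.21 in SI tissue with no call.

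Proliferation genes were lower in GB tissue. Of 33 cell cycle genes, 27 were called lower and 1 higher (median -1.74). The proliferation marker Mki67 had signals of 7.68 and 6.92 in GB tissue, against 10.48 and 10.01 in SI tissue (difference -2.94, SE 0.30). Cyclin A, Ccna2, had 7.60 and 7.14 in GB tissue, against 10.70 and 10.97 in SI tissue (difference -3.46, SE 0.27). Topoisomerase Top2a had 7.01 and 6.42 in GB tissue, against 10.07 and 10.05 in SI tissue (difference -3.35, SE 0.25). In these 3 genes the GB arrays lay below the SI arrays, as in 36.3% of all genes, Mki67 being at 7.35 and 7.36 in liver tissue. Cyclin D1, Ccnd1, was the exception at 12.77 and 12.40 in GB tissue, against 10.55 and 10.21 in SI tissue (difference 2.20, SE 0.27, adjusted p 0.00532). Stem cell and Wnt target genes split evenly, with 4 of 18 called higher and 4 lower (median -0.26), or 2 lower without SI replicate 2. Ascl2, a factor of crypt stem cells, had 6.09 and 5.98 in GB tissue, against 7.22 and 7.74 in SI tissue (difference -1.44, SE 0.21). The Wnt target Axin2 had 7.97 and 8.04 in GB tissue, against 9.35 and 9.27 in SI tissue (difference -1.30, SE 0.13). Lgr5 had 6.54 and 7.90 in GB tissue, against 8.75 and 8.74 in SI tissue and was not called (difference -1.53, adjusted p 0.0932). Cd44, a receptor for hyaluronan, was higher at 12.21 and 12.05 in GB tissue, against 8.88 and 9.56 in SI tissue (difference 2.91, SE 0.25), as was Prom1 at 12.34 and 11.67 in GB tissue, against 9.22 and 9.40 in SI tissue (difference 2.70, SE 0.25).

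R-spondin, Wnt and BMP pathway genes, which signal around the epithelium, were called in both directions. Of 33 measured, 10 were called higher and 3 lower (median 0.03). Without SI replicate 1 the count higher was 5, and the count lower was 1 without any one tissue array. Dkk2, a secreted Wnt modulator, had signals of 8.54 and 8.15 in GB tissue, against 6.85 and 6.57 in SI tissue (difference 1.63, SE 0.22). Its relative Dkk3 had 10.16 and 9.56 in GB tissue, against 8.21 and 7.84 in SI tissue (difference 1.83, SE 0.25). Sfrp1, Sfrp2 and Wif1, which bind Wnt proteins, were also among the 10, but their calls hung on single arrays. That of Sfrp1 ended without either GB array (adjusted p 0.0994 and 0.0596). That of Sfrp2 ended without any one SI or liver array (from 0.0845 to 0.156), and that of Wif1 without any one array but GB replicate 2 (from 0.0947 to 0.174). Notum (difference 0.75, adjusted p 0.133) and Frzb (difference 0.07, adjusted p 0.82), which also act against Wnt proteins, were not called. Rspo3, a ligand of the Lgr receptors that raises Wnt signalling, had 8.46 and 8.54 in GB tissue, against 7.16 and 7.36 in SI tissue (difference 1.24, SE 0.18). Sonic hedgehog, Shh, chosen after its values were seen, had 10.89 and 10.66 in GB tissue, against 7.29 and 7.08 in SI tissue (difference 3.59, SE 0.17), with 6.88 and 7.07 in liver tissue, and the hedgehog receptor and target Ptch1 had 11.04 and 10.67 in GB tissue, against 8.96 and 9.46 in SI tissue (difference 1.65, SE 0.25).

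Lymphocyte genes were lower in GB tissue, with 14 of 32 called lower and 0 higher (median -1.41). The count was 25 without SI replicate 1, 6 without GB replicate 1 and 9 without GB replicate 2, and 1 gene was called higher without GB replicate 2 or SI replicate 1. Ccl25, a chemokine by which intestinal epithelium draws in T cells, had signals of 7.04 and 7.65 in GB tissue, against 13.43 and 13.31 in SI tissue (difference -6.02, SE 0.25). The B cell surface protein Ms4a1 had 5.46 and 5.43 in GB tissue, against 7.97 and 8.90 in SI tissue (difference -2.98, SE 0.39). The B cell receptor chain Cd79a had 5.59 and 5.79 in GB tissue, against 7.96 and 8.71 in SI tissue (difference -2.64, SE 0.28). In both B cell genes SI replicate 2 was the higher SI array, and both GB arrays lay below liver tissue, where Ms4a1 had 6.18 and 6.98. MHC class II genes gave 4 lower and 0 higher of 9, or 2 lower without GB replicate 1 or SI replicate 2.

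Genes higher in GB tissue than in both SI tissue and liver tissue numbered 1143, 5.73% of all genes. The 2 comparisons share the GB arrays. The count was 550 without GB replicate 1, 697 without SI replicate 2, and 433 and 586 without liver replicate 1 or 2. The genes were ordered by the smaller of their differences from SI and liver tissue, a rule set after the values were seen. The leading member was Cyp4a12a, a fatty acid hydroxylase of the cytochrome P450 family, with signals of 12.57 and 13.17 in GB tissue, against 5.27 and 5.19 in SI tissue (difference 7.64, SE 0.22, adjusted p 7.92e-05) and 5.73 and 5.74 in liver tissue. The neighbouring Cyp4a12b had 11.46 and 12.78 in GB tissue, against 5.10 and 5.14 in SI tissue (difference 7.0, SE 0.42), and the 2 genes are close copies whose probes may read each other. Muc1 had a difference of 6.94 (SE 0.54, adjusted p 0.00144), which is a fold of 123. Cfap69, a cilium and flagellum protein, had 11.65 and 11.13 in GB tissue, against 5.27 and 5.19 in SI tissue (difference 6.16, SE 0.21). The immune checkpoint ligand Vtcn1 had 12.37 and 11.70 in GB tissue, against 6.32 and 6.04 in SI tissue (difference 5.85, SE 0.25). In each of these 5 genes the lower GB array lay above every SI and liver array. Nothing is read from this, because the genes were chosen as called higher than both tissues and without overlap with the SI arrays.

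The 25 leading genes of that order also held channels, carriers and enzymes of several kinds. Gabrp, the pi subunit of the GABA-A receptor channel, had signals of 11.90 and 11.23 in GB tissue, against 6.19 and 6.10 in SI tissue (difference 5.42, SE 0.24). The sodium-proton exchanger Slc9a4 had 11.87 and 10.90 in GB tissue, against 6.74 and 6.49 in SI tissue (difference 4.76, SE 0.33). The urea carrier Slc14a1 had 12.47 and 12.45 in GB tissue, against 7.37 and 8.91 in SI tissue (difference 4.32, SE 0.48). Fut2, the fucosyltransferase that makes secreted blood group sugars, had 12.65 and 12.00 in GB tissue, against 7.87 and 8.11 in SI tissue (difference 4.34, SE 0.25). Sptssb, a subunit of the first enzyme of sphingolipid synthesis, had 11.78 and 10.68 in GB tissue, against 6.64 and 6.39 in SI tissue (difference 4.72, SE 0.36). The fatty acid hydroxylase Fa2h had 11.69 and 10.73 in GB tissue, against 6.95 and 6.42 in SI tissue (difference 4.52, SE 0.37). The galactosyltransferase Ugt8a had 10.37 and 10.16 in GB tissue, against 6.37 and 6.40 in SI tissue (difference 3.88, SE 0.15). The sulfotransferase Sult1c2 had 12.79 and 12.44 in GB tissue, against 7.20 and 7.14 in SI tissue (difference 5.44, SE 0.57). Both GB arrays lay above both SI arrays in these 8 genes and in 30.0% of all genes, and nothing is read from this because the genes were chosen as called higher.

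**Figure D4:**
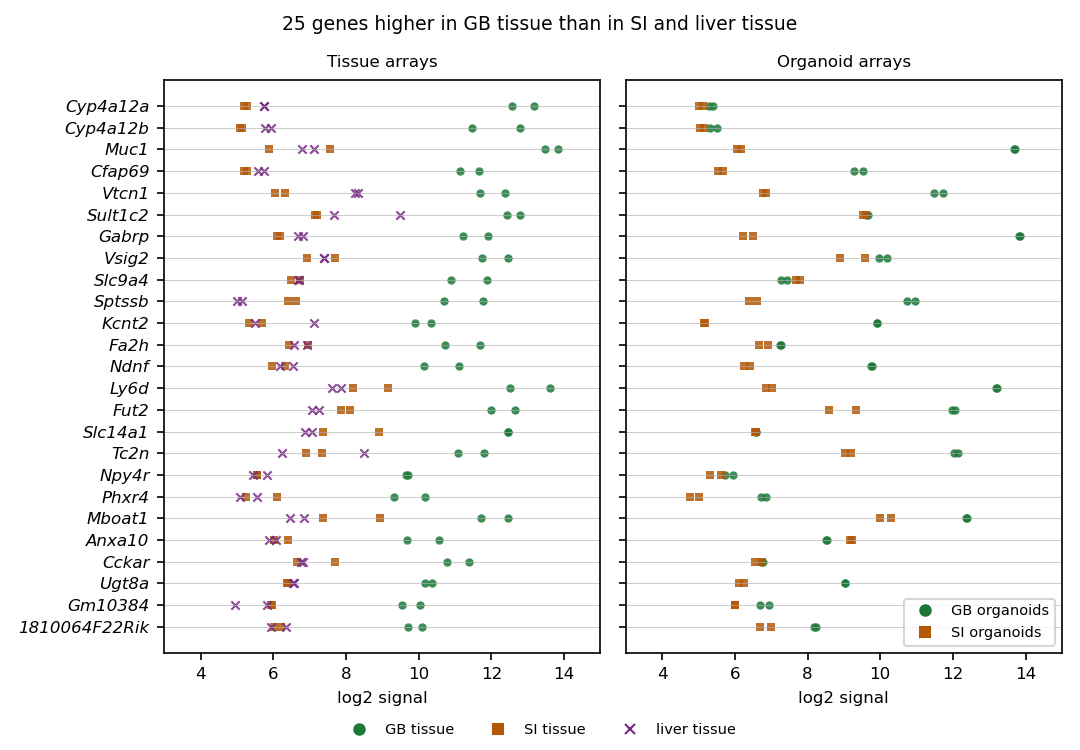
Log2 signals of the 25 leading genes, by the smaller of the 2 differences, among those called higher in GB tissue than in SI and liver tissue, on the tissue arrays (left) and on the organoid arrays (right). Muc1, Gabrp, Ly6d and Kcnt2 were also high in GB organoids, whereas the organoid differences of Cyp4a12a, Slc14a1 and Cckar were at most 0.27.

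Biliary and foregut transcription factors gave 6 called higher and 1 lower of 17 (median -0.02). The count higher was 3 without GB replicate 1 or SI replicate 2, and the count lower was 3 without GB replicate 2 and 2 without SI replicate 1. Onecut1, a factor of bile duct and liver development, had signals of 11.85 and 11.88 in GB tissue, against 6.97 and 6.69 in SI tissue (difference 5.04, SE 0.23, adjusted p 0.000285), with 9.86 and 10.42 in liver tissue. Hhex, an early foregut factor, had 9.58 and 10.89 in GB tissue, against 6.30 and 6.46 in SI tissue (difference 3.85, SE 0.59), and Sox17 differed by 3.31 (SE 0.20). The epithelial factor Ehf had 12.23 and 11.76 in GB tissue, against 10.75 and 9.84 in SI tissue (difference 1.70, SE 0.34). Sox9, a factor of bile duct cells and crypts, had 9.43 and 9.02 in GB tissue, against 9.18 and 9.31 in SI tissue (difference -0.02, adjusted p 0.963). The 1 called lower was Tbx3 at 8.37 and 9.28 in GB tissue, against 12.01 and 11.97 in SI tissue (difference -3.17, SE 0.51). The calls of Ehf and Tbx3 ended without GB replicate 1 (adjusted p 0.0915 for Ehf and 0.0508 for Tbx3) and without SI replicate 2 (0.0507 and 0.0509).

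Of 25 markers of GB epithelium, 8 were called higher and 5 lower (median 0.94), or 3 lower without SI replicate 1. Besides Muc1, Gabrp and Vtcn1, the membrane mucin Muc4 had signals of 12.35 and 11.08 in GB tissue, against 8.20 and 8.81 in SI tissue (difference 3.21, SE 0.46). Carbonic anhydrase Car2 had 13.05 and 12.69 in GB tissue, against 7.52 and 10.95 in SI tissue and was not called (difference 3.63, adjusted p 0.0664). Cldn4, a tight junction protein, went the other way at 8.28 and 8.27 in GB tissue, against 11.84 and 12.45 in SI tissue (difference -3.87, SE 0.23), and so did the other lower members Cftr, Aldh1a3, Lgals2 and Krt23. The call of Lgals2 ended without any one SI or liver array (adjusted p from 0.0528 to 0.0926), and that of Krt23 without GB replicate 1 (0.0549) or SI replicate 1 (0.0634). In claudins as a family 2 of 19 were higher and 5 lower, or 3 lower without SI replicate 1. The claudin share higher, 10.53%, was near the 10.4% of all genes, and the share lower was 26.32% against 11.1%. Cldn2, which forms a pore for cations and water, had 12.27 and 12.01 in GB tissue, against 9.78 and 9.64 in SI tissue (difference 2.43, SE 0.18). Cldn15, the sodium pore of small intestine, had 7.74 and 7.57 in GB tissue, against 12.48 and 13.00 in SI tissue (difference -5.08, SE 0.24). Among 15 mucins and trefoil factors, Muc1 and Muc4 were called higher and Muc2, Muc13 and Tff3 lower. These shares were 13.33% and 20%, against 10.4% and 11.1% of all genes. The count higher was 3 without either GB array and 4 without SI replicate 2, and the count lower was 2 without either SI array, when the call of Tff3 ended (adjusted p 0.0648 and 0.0594). Muc13 had 6.70 and 6.08 in GB tissue, against 13.20 and 13.11 in SI tissue (difference -6.77, SE 0.23), and Muc3 was high in both organs at 13.92 and 12.84 in GB tissue, against 13.86 and 13.60 in SI tissue. The gel-forming gastric mucin Muc5ac had 6.54 and 6.35 in GB tissue, against 6.43 and 6.43 in SI tissue, and Muc5b and Muc6 had no call. Of 16 gastric-type genes, 4 were called higher (25%) and 2 lower (12.5%), the share lower being near that of all genes. The protease cathepsin E, Ctse, had 13.12 and 12.53 in GB tissue, against 8.41 and 8.44 in SI tissue (difference 4.40, SE 0.28). Anxa10 had 10.55 and 9.69 in GB tissue, against 6.02 and 6.41 in SI tissue (difference 3.91, SE 0.32). The gastrokine Gkn1 had 7.30 and 7.10 in GB tissue, against 7.28 and 7.20 in SI tissue.

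Genes that move ions and water were called in both directions. Of 38 measured, 7 were called higher and 10 lower (median -0.05). The calcium-activated chloride channel Ano1 had signals of 11.87 and 11.42 in GB tissue, against 8.39 and 7.62 in SI tissue (difference 3.64, SE 0.29), set against the fall of Cftr (-4.13). The chloride-bicarbonate exchanger Slc26a6 had 6.40 and 6.70 in GB tissue, against 12.38 and 12.43 in SI tissue (difference -5.85, SE 0.22). The related Slc26a3 had 12.42 and 12.54 in GB tissue, against 12.09 and 11.84 in SI tissue with no call. The sodium-proton exchanger Slc9a2 was lower at 9.75 and 9.17 in GB tissue, against 11.82 and 11.95 in SI tissue (difference -2.42, SE 0.24), where Slc9a4 was higher. The sodium-bicarbonate carrier Slc4a4 had 13.59 and 13.18 in GB tissue, against 12.03 and 11.36 in SI tissue. The sodium-proton exchanger Slc9a3 had 13.19 and 12.01 in GB tissue, against 10.88 and 11.65 in SI tissue, and neither gene was called. Among water channels Aqp5 at 10.23 and 10.08 in GB tissue, against 8.69 and 8.55 in SI tissue (difference 1.54, SE 0.15) and Aqp8 at 10.09 and 10.16 in GB tissue, against 6.58 and 7.81 in SI tissue (difference 2.93, SE 0.42) were higher, and Aqp8 was at 11.72 and 12.20 in liver tissue. Aqp7 (-4.12) and Aqp3 (-2.54) were lower, and Aqp1 had 13.12 and 12.81 in GB tissue, against 12.60 and 11.30 in SI tissue with no call.

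Receptors that set contraction and secretion were called higher in 7 of 28 and lower in 5 (median -0.26). The count higher was 4 without GB replicate 1 or either SI array, and the count lower was 3 without GB replicate 1 or either liver array. Cckar, the receptor through which cholecystokinin empties the gallbladder, had signals of 11.38 and 10.77 in GB tissue, against 6.66 and 7.69 in SI tissue (difference 3.91, SE 0.38, adjusted p 0.0027). Its fold was 15, and it was at 6.81 and 6.76 in liver tissue. Chrm3, the muscarinic receptor of smooth muscle and glands, had 11.20 and 10.35 in GB tissue, against 7.84 and 7.91 in SI tissue (difference 2.90, SE 0.29). The intestinal receptors Gucy2c, for guanylin, at 6.06 and 6.48 in GB tissue, against 12.37 and 12.01 in SI tissue (difference -5.92, SE 0.23), and Vipr1, for vasoactive intestinal peptide, at 7.54 and 8.57 in GB tissue, against 12.34 and 11.83 in SI tissue (difference -4.03, SE 0.37), were lower.

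Genes of smooth muscle and connective tissue were higher in GB tissue. Of 28 smooth muscle genes, 22 were called higher and 1 lower (median 1.38). Fewer were called higher when any one tissue array but GB replicate 2 was left out. Smooth muscle myosin, Myh11, had signals of 13.19 and 12.86 in GB tissue, against 11.78 and 11.21 in SI tissue (difference 1.53, SE 0.24). Gamma enteric actin, Actg2, had 12.78 and 12.33 in GB tissue, against 10.78 and 11.11 in SI tissue (difference 1.61, SE 0.21). Calponin, Cnn1, had 13.18 and 12.72 in GB tissue, against 11.21 and 11.04 in SI tissue (difference 1.82, SE 0.20). The integrin Itga8 had 10.57 and 10.32 in GB tissue, against 7.27 and 7.96 in SI tissue (difference 2.83, SE 0.26). Myocd, the factor that drives the smooth muscle programme, had 9.53 and 9.14 in GB tissue, against 7.38 and 7.30 in SI tissue (difference 2.0, SE 0.19). Both GB arrays lay above both SI arrays in these 5 genes, as in 30.0% of all genes. In liver tissue Myh11 was at 7.75 and 7.85 and Actg2 at 6.82 and 6.78. The 1 lower member was the striated muscle Z-line protein Ldb3, at 7.76 and 7.34 in GB tissue, against 9.91 and 10.15 in SI tissue (difference -2.48, SE 0.20). Of 30 fibroblast and matrix genes, 20 were called higher and 1 lower (median 0.89), or 12 higher without GB replicate 1 or SI replicate 2 and 13 without GB replicate 2, and 0 lower without either SI array. Periostin, Postn, had 12.31 and 11.90 in GB tissue, against 9.0 and 7.98 in SI tissue (difference 3.61, SE 0.36). Lumican, Lum, had 10.19 and 10.04 in GB tissue, against 7.11 and 6.99 in SI tissue (difference 3.07, SE 0.15). Collagen Col1a2 had 11.14 and 10.81 in GB tissue, against 9.06 and 8.95 in SI tissue (difference 1.97, SE 0.17).

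Vessel and nerve genes gave counts that hung on single arrays. Of 23 endothelial and lymphatic markers, 7 were called higher and 1 lower (median 0.87). The count higher was 3 without GB replicate 2, 1 without SI replicate 1, 2 without SI replicate 2 and 4 without either liver array, and the count lower was 2 without SI replicate 1. Reln, a secreted protein of lymphatic vessels, had signals of 9.66 and 10.49 in GB tissue, against 8.09 and 7.81 in SI tissue (difference 2.12, SE 0.31), and liver tissue had 10.29 and 10.60. The 1 lower was Rgs5, a marker of pericytes, at 9.15 and 9.21 in GB tissue, against 11.14 and 10.99 in SI tissue (difference -1.88, SE 0.21). Of 22 neural and glial markers, 1 was called higher and 5 lower (median -0.52). The count lower was 1 without either GB array and 3 without SI replicate 1, and the count higher was 2 without GB replicate 2 and 0 without SI replicate 2. The neuropeptide Vip had 5.82 and 6.01 in GB tissue, against 7.08 and 7.76 in SI tissue (difference -1.51, SE 0.25), a call that ended without GB replicate 1 (adjusted p 0.0583).

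Genes of hepatocytes gave the highest median of all lists examined. Of 31 hepatocyte markers, 28 were called higher and 0 lower (median 5.17), and 0 of them were called higher in GB tissue than in liver tissue. Albumin, Alb, had signals of 14.30 and 14.30 in GB tissue, against 8.05 and 9.90 in SI tissue, with 14.34 and 14.35 in liver tissue. The tryptophan enzyme Tdo2 had 10.94 and 13.18 in GB tissue, against 4.74 and 5.06 in SI tissue (difference 7.16, SE 0.69). The fetuin gene Ahsg had 13.52 and 14.14 in GB tissue, against 6.78 and 7.58 in SI tissue (difference 6.65, SE 0.33). Serpina1c, an antitrypsin gene, had 12.60 and 14.19 in GB tissue, against 6.19 and 6.73 in SI tissue (difference 6.94, SE 0.52), with 13.96 and 14.04 in liver tissue. For such genes GB replicate 2 was near the liver arrays and GB replicate 1 lower, and both lay above the SI arrays. Cyp8b1, Ttc36 and Cyp2c29 were not called. The count called higher changed when any one tissue array was left out. It rose without GB replicate 1, fell without any other array, and was lowest without either SI array. Without the genes called higher in liver tissue than in SI tissue, 1446 genes were called higher in GB tissue and 2264 lower. Among the lists with members called higher, without those genes the bile acid list had 2 called higher, the enzymes for foreign compounds 1, the endothelial markers 1, the epithelial defence genes 2 and the biliary factors 4.

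Pancreatic acinar genes behaved unlike the hepatocyte genes. Of 24 measured, 3 were called lower and 0 higher (median -2.43), and 19 were called lower without SI replicate 1. The count lower was 1 without either GB array or either liver array, and 2 were called higher without SI replicate 2. Cpa1 had signals of 6.63 and 6.52 in GB tissue, against 6.79 and 13.52 in SI tissue, and most of the list was likewise low on all arrays but SI replicate 2. Chymotrypsinogen Ctrb1 differed from the rest of the list, at 13.48 and 13.69 in GB tissue, against 7.40 and 13.76 in SI tissue, high on both GB arrays and on SI replicate 2. Reg1 had 13.79 and 12.24 in GB tissue, against 7.28 and 14.15 in SI tissue in the same pattern, and neither gene was called (adjusted p 0.308 and 0.472). Liver tissue had 7.30 and 7.84 for Ctrb1.

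Enzymes that handle foreign compounds were called higher in 7 of 40 genes and lower in 11 (median -0.39), or 6 lower without SI replicate 2. The lower members included Adh6a at 5.80 and 5.43 in GB tissue, against 12.36 and 13.11 in SI tissue (difference -7.12, SE 0.28) and Cyp2b10 at 7.77 and 6.45 in GB tissue, against 11.69 and 13.49 in SI tissue (difference -5.48, SE 0.69). Higher members were mostly at high levels in liver tissue too, such as Gsta3, a glutathione transferase, at 12.44 and 13.04 in GB tissue, against 7.73 and 7.30 in SI tissue (difference 5.22, SE 0.28) and 13.04 and 13.42 in liver tissue. Among 28 genes of epithelial defence, 4 were called higher and 4 lower (median 0.30), or 2 lower without SI replicate 1. The share called was 14.29% in each direction, near the 10.4% higher and 11.1% lower of all genes. All 4 lower genes are Reg family lectins, among them Reg3a at 5.40 and 5.09 in GB tissue, against 10.70 and 11.38 in SI tissue (difference -5.79, SE 0.26). The protease inhibitor relative Wfdc2 had 11.36 and 11.02 in GB tissue, against 7.12 and 7.31 in SI tissue (difference 3.98, SE 0.31). Lbp, which binds bacterial lipopolysaccharide, had 12.35 and 11.76 in GB tissue, against 8.05 and 7.62 in SI tissue (difference 4.22, SE 0.34) and 13.36 and 12.59 in liver tissue. Dmbt1, a mucosal scavenger receptor, had 14.51 and 14.35 in GB tissue, against 12.59 and 13.33 in SI tissue (difference 1.47, adjusted p 0.055).

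Other lists held few called genes or counts that hung on single arrays. Among all genes 10.4% were called higher and 11.1% lower, and macrophage genes, with 8.7% in each direction, were near these shares. In 28 Hox genes 0 were called higher and 1 lower, or 2 lower without GB replicate 2. Hox signals lay between 4.80 and 8.31 in GB tissue and between 5.42 and 8.24 in SI tissue. Of 17 circadian clock genes 1 was called higher and 0 lower, the 1 being Rora at 9.42 and 9.98 in GB tissue, against 7.77 and 7.35 in SI tissue (difference 2.14, SE 0.25), or 3 higher and 2 lower without either liver array. Immediate early and heat shock genes gave 2 higher and 1 lower of 21, with 0 lower without any one GB or SI array and 4 lower without either liver array, with Fos at 8.43 and 6.87 in GB tissue, against 10.23 and 10.28 in SI tissue (difference -2.60, adjusted p 0.108) and the heat shock gene Hspb1 at 12.31 and 11.72 in GB tissue, against 9.34 and 9.38 in SI tissue (difference 2.66, SE 0.25). Of 23 macrophage genes 2 were higher and 2 lower, with 1 higher without GB replicate 2 and 0 without SI replicate 1, and 0 lower without GB replicate 1 or SI replicate 2. Among 15 mast cell and eosinophil genes 1 was called lower, and the 3 called higher were the mast cell proteases Cpa3, Mcpt4 and Tpsb2, with Cpa3 at 9.34 and 7.52 in GB tissue, against 5.35 and 5.95 in SI tissue (difference 2.77, SE 0.59). The count lower was 0 without any one array but SI replicate 1 and 2 without that array. The count higher was 0 without any one SI or liver array, when Cpa3 had adjusted p between 0.0593 and 0.103. Of 16 keratins 4 were called lower and 0 higher, or 1 lower without GB replicate 1 or SI replicate 1 and 2 lower without SI replicate 2 or either liver array, with Krt20, a keratin of mature enterocytes, at 7.40 and 5.64 in GB tissue, against 13.48 and 13.52 in SI tissue (difference -6.98, SE 0.54). Of 27 regional mesenchyme factors 5 were called higher and 5 lower. The count lower was 0 without GB replicate 1, 2 without GB replicate 2, 1 without SI replicate 2 and 3 without either liver array, and the count higher was 3 without GB replicate 2 or either SI array. Of 14 adipocyte markers 1 was called higher and 0 lower, or 2 higher without GB replicate 1 and 0 without GB replicate 2.

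Probe sets of 296 miRNA genes were also on the array, of which 36 were called higher (12.2%) and 7 lower (2.36%). Among all genes 10.4% were called higher and 11.1% lower. The miRNA share higher was thus near that of all genes, and the share lower was below it. They read the primary transcript or hairpin, not the mature miRNA. The mature sequences of some called genes, and of Mir192 for its shared seed, are printed below from RefSeq (GRCm38.p6) because genes that share a seed were not all called. Of the 43 called, 41 had an entry. These genes were chosen after their values were seen. Capitals mark the seed, bases 2 to 8.
miR-215-5p: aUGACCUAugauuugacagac
miR-192-5p: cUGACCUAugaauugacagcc
miR-194-5p: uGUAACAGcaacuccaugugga
miR-200b-3p: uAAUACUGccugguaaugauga
miR-200a-3p: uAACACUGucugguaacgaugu
let-7c-5p: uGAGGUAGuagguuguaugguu
let-7d-5p: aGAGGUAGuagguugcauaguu
miR-99a-5p: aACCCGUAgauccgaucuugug
miR-100-5p: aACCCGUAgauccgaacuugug
Mir215, at chr1:185313610-185313630, had signals of 5.21 and 5.30 in GB tissue, against 9.59 and 8.51 in SI tissue (difference -3.80, SE 0.35, adjusted p 0.00234). Mir192 on chromosome 19 carries the same seed, UGACCUA, and had 7.39 and 7.01 in GB tissue, against 6.71 and 7.49 in SI tissue (difference 0.10, adjusted p 0.835). Mir194-1, which lies beside Mir215, had 8.04 and 7.67 in GB tissue, against 9.45 and 8.82 in SI tissue (difference -1.28, SE 0.27), and its call ended without any one array but SI replicate 2 (adjusted p from 0.0515 to 0.0921). Higher in GB tissue were the epithelial Mir200b at 9.58 and 8.84 in GB tissue, against 6.24 and 7.06 in SI tissue (difference 2.56, SE 0.38) and its neighbour Mir200a at 8.35 and 7.97 in GB tissue, against 6.87 and 7.17 in SI tissue (difference 1.13, SE 0.20), whose seeds are not the same. The call of Mir200a ended without GB replicate 1 (adjusted p 0.050) or SI replicate 1 (0.0603). Mirlet7c-1 had 6.47 and 6.05 in GB tissue, against 3.81 and 4.0 in SI tissue (difference 2.36, SE 0.22). Mirlet7d, with the same seed, had 8.19 and 8.10 in GB tissue, against 6.20 and 6.27 in SI tissue (difference 1.91, SE 0.23). Mir99a and Mir100 also share a seed and differed by 1.51 and 1.10, the call of Mir100 ending without either SI array (adjusted p 0.0601 and 0.055). Mir145a, known from smooth muscle, had 10.84 and 10.40 in GB tissue, against 7.13 and 7.47 in SI tissue (difference 3.32, SE 0.24). Its neighbour Mir143 had 9.37 and 8.89 in GB tissue, against 7.35 and 7.34 in SI tissue (difference 1.78, SE 0.21).

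The tissue differences were set beside those of GB organoids minus SI organoids, which share no array with them. In organoids 33.6% of genes were called higher and 23.3% lower. Of the 2208 genes lower in GB tissue, 58.15% were called lower in organoids and 14.18% higher. Those genes lower in both made up 27.69% of the 4637 genes lower in organoids. Of the 2064 genes higher in GB tissue, 56.93% were called higher in organoids and 12.45% lower, and they made up 17.52% of the 6705 genes higher in organoids. Across all 19938 genes the differences correlated at r = 0.473, which is a description across genes that share arrays and scaling. Among genes at least 4 log2 units lower in GB tissue, 135 of 154 were called lower in organoids.

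Members of the lists had these values in organoids, where 33.6% of all genes were called higher and 23.3% lower. Brush border hydrolases were called lower in organoids in 15 of 17, and cell cycle genes in 30 of 33. Sis differed by -8.28 in organoids and -8.67 in tissue. Smooth muscle genes were called higher in 13 of 28 and lower in 2 in organoids, with a list median of only 0.26. Myh11 was at 7.02 and 7.13 in GB organoids and 6.96 and 6.89 in SI organoids, far below the tissue signals. Hepatocyte markers were called higher in 8 of 31 and lower in 7, which is near the shares of all genes. Alb had 6.60 and 6.33 in GB organoids and 8.36 and 7.96 in SI organoids. Of the 25 genes led by Cyp4a12a, 20 were called higher in organoids and 1, Anxa10, lower. Muc1 had 13.67 and 13.71 in GB organoids and 6.18 and 6.07 in SI organoids (organoid difference 7.56). Cyp4a12a had 5.28 and 5.40 in GB organoids and 5.13 and 5.01 in SI organoids (organoid difference 0.27), and Cckar had 6.77 and 6.73 in GB organoids and 6.75 and 6.57 in SI organoids (organoid difference 0.09, adjusted p 0.413). Cldn4 was higher in organoids (1.37) and lower in tissue (-3.87), and Krt20 was 0.40 in organoids and -6.98 in tissue.

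**Figure D5:**
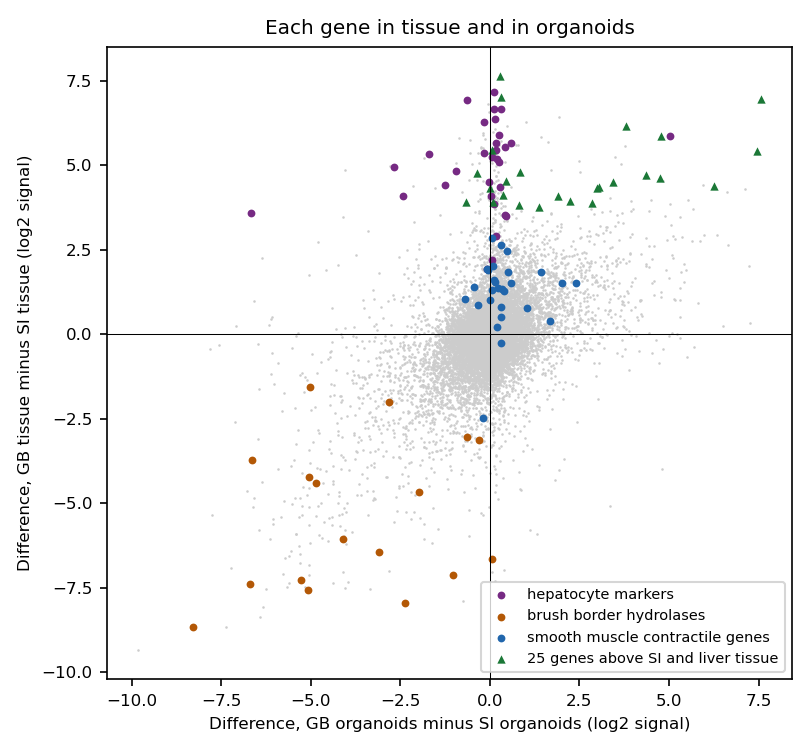
Difference of GB tissue minus SI tissue (vertical axis) against that of GB organoids minus SI organoids (horizontal axis), both in log2 signal, for 19938 genes (grey points) with 3 gene lists and the 25 genes above SI and liver tissue in colour. Brush border hydrolases lie mostly at the lower left, and the 28 called hepatocyte markers lie between 1.94 and 7.16 in tissue, with a list median of 0.12 in organoids.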

How the data were processed

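RNA of gallbladder, small intestine and liver tissue and of organoids was hybridised to Affymetrix gene arrays, 14 in all. The authors deposited log2 signals per probe set, made by RMA per the submitters' processing notes, whose settings and version are not given in the sources used here. Arrays have no read depth. Their precision is limited by how many there are. Of 35556 probe sets, 21789 carried 1 gene symbol, 1621 several and 12146 none in the annotation given. The probe set with the highest mean was kept for each of 19938 genes. The tissue fit held 6 arrays (GB, SI and liver tissue) and the organoid fit 6 arrays (GB, SI and liver organoids). Both used limma 3.58.1 under R 4.3.3, with Benjamini-Hochberg adjustment over all genes and calls at adjusted p below 0.05. The fit was tested on simulated data. The comparison, its 38 gene lists (813 of 887 genes measured) and the named genes were chosen with earlier results of these data known. The genes named are the 15 most different called genes on either side whose GB and SI arrays stay apart, and members of the lists. The lists are described by counts and medians, with no set test. Alternatives changed the normalisation, the filter on low signals, the choice of probe set, the arrays in the fit, the variance prior, the array weights, the fold required and the genes kept, and left out each array in turn.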

Additional observations from a re-analysis of the deposited data

How the results depend on the processing

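The 2064 genes called higher in GB tissue and 2208 called lower ranged from 1109 to 1804 higher and from 1226 to 1628 lower when 1 of the 6 tissue arrays was left out. Where this left 1 array in a group, that array was assumed to vary like the other groups. Leaving out either liver array amounted to the fit to the 4 arrays compared. These settings are therefore not separate checks, though each is counted below. Of 414 called genes named in the lists or chosen by rule, 256 were called without each of the 6 arrays, and of the 51 with the leading differences, 50 were. Nothing is read from the count among the 51, because they were chosen as called genes with large differences on these same arrays. A fit to all 14 arrays, whose organoid arrays vary less between replicates, called 4135 higher and 4838 lower. Requiring a difference of at least 1 log2 unit left 1447 lower, and requiring at least 2 left 503 higher and 555 lower. Keeping only genes also higher than in liver tissue, an alternative chosen after seeing the data, left 1143 higher. Quantile normalisation gave 2162 higher and 2043 lower, centring on array medians 1797 and 2487, and a fit to the 4 arrays compared 1596 and 1628. The other alternatives, one of them also chosen after seeing the data, stayed within 1.5 times of both counts. Same-numbered arrays did not deviate together (correlations of their deviations 0.05, -0.01 and 0.11), and with the replicate number as a block 1911 genes were called higher and 2051 lower. The 872 genes in the lists or chosen by rule, 414 of them called, gave 16130 gene and setting pairs, of which 647 lost a call and 466 gained one. A change of sign with a call in either fit occurred in 1 pair, Xist, which was not called and had differences from -6.28 without GB replicate 1 to 1.77 without GB replicate 2 (adjusted p 0.018 in that fit). Changes of sign where neither fit made a call are not counted. Both the 872 genes and the 414 called ones include genes chosen after their values were seen, such as Mir215. With 2 arrays in each group the fit has 3 residual degrees of freedom for a gene. A gene near the floor of the array has its difference compressed, and 5729 genes were below 7 on all 4 arrays.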
